A study of Rattus norvegicus with 2 samples.

Results

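The 42 genes described here are a fixed list of cell cycle genes: 22 whose transcripts mark the G2 phase and mitosis (G2/M genes), 19 that mark DNA replication (S genes), and Stmn1. They were chosen by name, with earlier results of these data known. Both deposited single-cell tables held 41 of the 42, out of 22154 genes listed in either table. Ccnb2 was not analysed here, so the G2/M group had 21 measured genes. Cells came from rats 4 weeks old, from the zygomatic maxillary suture that joins the cheekbone to the upper jaw. The study compared 1 library from a distracted suture with 1 from a sham-operated suture. In the distraction group a W-shaped distractor, bent from nickel-titanium wire of 0.4 mm and calibrated to start at 20 g, pulled for 7 days between the temporal bone base and the maxilla. The control rats had the same holes drilled and no distractor. Anaesthesia with chloral hydrate, the facial incision and the partial separation of masseter and temporal muscles are described without a difference between the groups. The labels give neither strain, sex nor the number of animals behind each library. The crushed tissue was loaded on a BD Rhapsody cartridge, a microwell device that tags each captured mRNA with a cell label and a unique molecular identifier (UMI). With 1 library a group there was no replicate and no test between groups. Intervals below are exact 95% intervals that cover counting error only.

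A dividing cell copies its DNA in S phase and separates the copies in mitosis. Before S phase, Cdt1 helps to load the MCM helicase (Mcm2 to Mcm7) at origins. At the G1/S boundary the cyclins E (Ccne1, Ccne2) activate Cdk2, and E2F transcription factors drive genes for the replication fork and for nucleotide supply. Later, cyclins A and B with Cdk1 start mitosis, Aurora and Polo kinases build the spindle, and the anaphase-promoting complex with Cdc20 and Ube2c ends it. G2/M genes are commonly regulated through CCAAT boxes and the cell cycle homology region bound by the DREAM and MuvB complexes. In bone marrow and in marrow-like cavities of bone, precursors of B cells, red cells and neutrophils divide in bursts and then leave the cycle as they mature.

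To set the 2 groups of genes beside their regulatory sequence, promoters were taken from RefSeq (rat build GRCr8), where 34 of the 41 measured genes had an entry. Tpx2, Ube2c, Ccna2, Aurkb, Ccne2, Mcm4 and Rrm2 had none. Each entry runs from 250 bases before the transcription start to 50 after it. Motifs were searched on both strands: the CCAAT box by the letters CCAAT, the cell cycle homology region by TTTGAA and also by TTCGAA, and E2F-type sites by any of 3 forms. These forms are GCGGGAA in the first case, the letters GCGCCAA in the second and the letters GCGCGAA in the third. On the reverse strand, CCAAT (read as ATTGG) can share letters with a cell cycle homology region, and with the second E2F-type form. A CCAAT box was found in 14 of 17 G2/M promoters (82.4%) and 10 of 16 S promoters (62.5%), against 37.7% of all 27457 promoters. The cell cycle homology region was found in 10 of 17 G2/M promoters (58.8%), in 5 of 16 S promoters (31.2%) and in 19.5% of all. E2F-type letters showed the opposite split, with 4 of 17 G2/M promoters (23.5%), 10 of 16 S promoters (62.5%) and 7.97% of all. A CCAAT box together with a cell cycle homology region stood in 9 of the 17 G2/M promoters (52.9%), in 4 of 16 S promoters (25%) and in 7.83% of all promoters. These are letter matches in 1 annotated window per gene, not measured binding sites.

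The 200 bases before the start are printed for 4 G2/M genes and 3 S genes on which the results below turn, with motif matches in capitals and the rest in lower case, 5′ to 3′ along the gene. Their positions are chr5:137255800-137255999 on the minus strand (Cdc20), chr10:84473094-84473293 on the minus strand (Top2a), chr20:19265093-19265292 on the plus strand (Cdk1), chr1:199952594-199952793 on the minus strand (Mki67), chr19:13488613-13488812 on the plus strand (Mcm5), chr13:42404353-42404552 on the minus strand (Mcm6) and chr3:139955821-139956020 on the minus strand (Pcna).
Cdc20: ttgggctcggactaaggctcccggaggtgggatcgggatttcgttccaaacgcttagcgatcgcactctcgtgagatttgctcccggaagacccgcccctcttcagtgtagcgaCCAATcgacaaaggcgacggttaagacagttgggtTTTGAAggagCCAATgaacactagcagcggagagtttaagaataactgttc
Top2a: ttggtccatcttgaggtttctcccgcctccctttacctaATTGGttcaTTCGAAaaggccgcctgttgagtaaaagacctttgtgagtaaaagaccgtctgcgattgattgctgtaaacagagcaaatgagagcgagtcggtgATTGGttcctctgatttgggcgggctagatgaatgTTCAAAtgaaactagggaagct
Cdk1: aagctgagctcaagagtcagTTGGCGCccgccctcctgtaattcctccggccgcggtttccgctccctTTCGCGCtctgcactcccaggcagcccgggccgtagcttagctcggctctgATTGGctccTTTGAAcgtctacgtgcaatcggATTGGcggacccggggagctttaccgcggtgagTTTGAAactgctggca
Mki67: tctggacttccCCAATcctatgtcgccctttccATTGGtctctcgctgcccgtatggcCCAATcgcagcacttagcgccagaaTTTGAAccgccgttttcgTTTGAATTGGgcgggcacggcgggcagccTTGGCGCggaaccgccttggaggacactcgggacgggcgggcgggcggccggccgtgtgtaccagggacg
Mcm5: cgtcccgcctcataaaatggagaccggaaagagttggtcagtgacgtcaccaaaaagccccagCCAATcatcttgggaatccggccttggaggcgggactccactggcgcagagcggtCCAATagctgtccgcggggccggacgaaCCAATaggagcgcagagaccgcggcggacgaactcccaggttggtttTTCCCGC
Mcm6: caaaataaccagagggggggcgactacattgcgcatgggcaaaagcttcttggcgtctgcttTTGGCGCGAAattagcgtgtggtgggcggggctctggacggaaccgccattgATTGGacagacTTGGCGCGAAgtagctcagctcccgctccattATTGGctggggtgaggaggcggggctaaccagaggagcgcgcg
Pcna: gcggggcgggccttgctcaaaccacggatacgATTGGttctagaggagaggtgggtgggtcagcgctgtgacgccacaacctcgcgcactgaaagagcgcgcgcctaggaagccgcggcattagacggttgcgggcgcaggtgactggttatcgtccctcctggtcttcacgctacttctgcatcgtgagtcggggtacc
In Cdc20 a cell cycle homology region lies 51 bases before the start between CCAAT boxes at 86 and 41. Cdk1 has cell cycle homology regions 72 and 16 bases before the start beside CCAAT boxes in reverse at 81 and 49, and E2F-type letters at 180 and 132. In Mcm6, paired E2F-type matches overlap at 138 and 135 and again at 75 and 72. The Pcna window printed here holds a single match, a CCAAT box in reverse 168 bases before the start, and none of the E2F-type letters searched.

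The distraction library held 4889 cells with 32078960 UMIs. The sham library held 5351 cells with 29924342 UMIs. After the filters 4032 and 5182 cells were kept, with median depths of 4157 and 3033 UMIs, and 22 cell labels occurred in both libraries (19 among the kept cells). Cells were clustered without the cell cycle genes and named from markers. Genes outside the lists that move with the cycle stayed in, so a cluster can still gather dividing cells. Most cells were blood-forming: 1589 distraction and 3404 sham cells were B-like, 69 and 64 early, 196 and 141 mid and 161 and 127 late erythroid-like, 109 and 69 granulocyte progenitor-like, 717 and 496 immature and 491 and 266 mature neutrophil-like, 289 and 287 monocyte-like, while 111 and 76 were stromal (fibroblast, osteoblast and endothelial markers). The cells labelled as suture thus held few suture-forming cells in either library. The larger stromal cluster (88 and 59 cells) had mural cells as its best marker list, but is called the fibroblast and osteoblast cluster from its leading genes. Levels are given as counts per 1000000 UMIs (CPM) of a cluster, and are compared between clusters for the same gene, not between genes.

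The members reached their highest level in 3 cell populations. Over clusters of at least 100 cells, 10 of the 21 G2/M genes were highest in a B precursor cluster led by Ezh2 and Cd24, 8 in mid erythroid-like cells and 3 in early erythroid-like cells. Of the 19 S genes, 10 were highest in the Ezh2 and Cd24 B precursors, 5 in mid and 4 in early erythroid-like cells. Stmn1, which destabilises microtubules, was highest in the Ezh2 and Cd24 B precursors at 3340 CPM in the distraction and 3592 CPM in the sham library. These clusters had 357 and 696 cells (Ezh2 and Cd24), 196 and 141 cells (mid erythroid) and 69 and 64 cells (early erythroid).

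**Figure D1:**
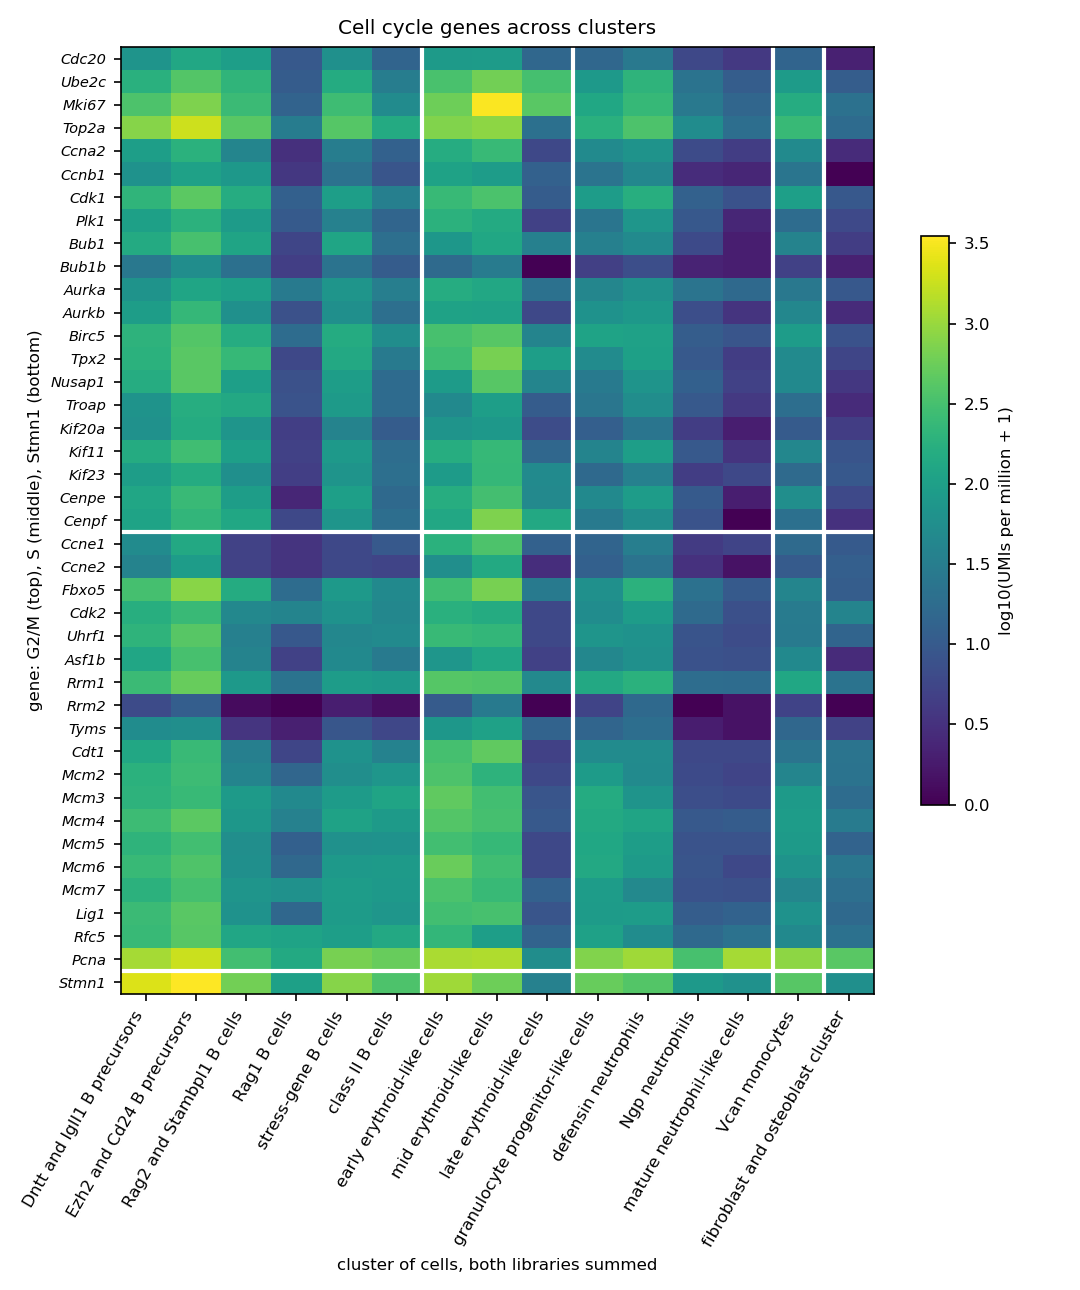
Level of 41 cell cycle genes (rows) in 15 clusters (columns, both libraries summed) as log10 of CPM plus 1. The brightest columns are the Ezh2 and Cd24 B precursors and the mid erythroid-like cells, and the Pcna row stays bright in mature neutrophil-like cells where the other S rows are dark.

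Among the mitotic chromosome genes, Top2a, the topoisomerase that untangles copied DNA, and Mki67, which coats mitotic chromosomes, had different leading cell types. Top2a stood at 1801 CPM in the distraction and 1883 CPM in the sham library in the Ezh2 and Cd24 B precursors, and at 888 and 849 CPM in mid erythroid-like cells. Mki67 stood at 759 and 692 CPM in the Ezh2 and Cd24 B precursors and at 3136 and 3545 CPM in mid erythroid-like cells. Top2a was thus higher in the B precursors and Mki67 higher in the mid erythroid-like cells, in both libraries. The count ratio of Mki67 to Top2a was 0.421 and 0.368 in the B precursors, 0.878 and 0.678 in early erythroid-like cells and 3.53 and 4.17 in mid erythroid-like cells. Cenpf, a kinetochore protein, followed Mki67, with 184 and 228 CPM in the Ezh2 and Cd24 precursors against 599 and 888 CPM in mid erythroid-like cells.

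The cyclins and Cdk1 differed less between these populations. Cdk1, the mitotic kinase, was at 441 and 455 CPM in the Ezh2 and Cd24 precursors, at 359 and 339 CPM in mid and at 248 and 246 CPM in early erythroid-like cells. Its partners Ccna2 (182 and 182 CPM in the precursors, 255 and 223 CPM in mid erythroid-like cells) and Ccnb1 (95.1 and 110 CPM, 90.2 and 91.9 CPM) stayed within 1.5-fold between these 2 clusters. Of the mitotic kinases and checkpoint genes, Bub1 was highest in the Ezh2 and Cd24 precursors (283 and 353 CPM, against 108 and 152 CPM in mid erythroid-like cells), as were Aurkb (223 and 232 CPM) and the checkpoint kinase Bub1b (52.3 and 54.3 CPM). Plk1 (190 and 193 CPM) and Aurka (155 and 158 CPM) were highest in early erythroid-like cells. Birc5, the survivin subunit of the Aurora B complex, was level between mid erythroid-like cells (446 and 373 CPM) and the B precursors (388 and 401 CPM).

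Spindle and kinetochore genes split in the same 2 directions. Tpx2, which activates Aurka on the spindle, was at 576 and 765 CPM in mid erythroid-like cells and 370 and 476 CPM in the Ezh2 and Cd24 precursors. The kinesin Kif23 (201 and 273 CPM against 154 and 151 CPM) and the kinetochore motor Cenpe (295 and 319 CPM against 220 and 274 CPM) were also higher in the erythroid cluster. In contrast Kif20a was at 162 and 147 CPM in the precursors against 69.6 and 84.3 CPM, and Troap at 144 and 171 CPM against 79.4 and 117 CPM. Nusap1 (422 and 432 CPM, 408 and 444 CPM) and the motor Kif11 (281 and 283 CPM, 234 and 242 CPM) differed by less. For the anaphase-promoting complex, its activator Cdc20 was highest in the Ezh2 and Cd24 precursors (124 and 137 CPM) and its ubiquitin-conjugating partner Ube2c in mid erythroid-like cells (584 and 657 CPM).

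Of the origin licensing genes, 4 of the 6 MCM subunits were highest in early erythroid-like cells: Mcm6 at 547 and 541 CPM, Mcm3 at 461 and 497 CPM, Mcm2 at 368 and 343 CPM and Mcm7 at 355 and 336 CPM. Mcm4 (487 and 435 CPM) and Mcm5 (330 and 283 CPM) were highest in the Ezh2 and Cd24 B precursors. Cdt1, which loads the helicase, peaked later in the red lineage, at 450 and 523 CPM in mid against 310 and 310 CPM in early erythroid-like cells. The cyclins E did likewise. Ccne1 was at 358 and 369 CPM and Ccne2 at 127 and 157 CPM in mid erythroid-like cells, against 123 and 145 CPM and 85.2 and 91.3 CPM in the Ezh2 and Cd24 precursors. Mid erythroid-like cells were thus high in cyclin E relative to the B precursors while Mcm5, at 229 and 242 CPM, was lower there.

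Other S genes favoured the B precursors. Fbxo5 (Emi1, the inhibitor of the anaphase-promoting complex) was at 799 and 842 CPM in the Ezh2 and Cd24 cluster and at 638 and 705 CPM in mid erythroid-like cells. The chromatin-copying genes Uhrf1 (392 and 441 CPM) and Asf1b (315 and 334 CPM) and the kinase Cdk2 (241 and 258 CPM) were highest there too. So were the fork genes Lig1, the DNA ligase (431 and 429 CPM), Rfc5, a clamp loader subunit (451 and 409 CPM), and Pcna, the sliding clamp (1813 and 1789 CPM). For nucleotide supply, Rrm1, the large ribonucleotide reductase subunit, was highest in the Ezh2 and Cd24 cluster (538 and 505 CPM), and Tyms (103 and 107 CPM) and Rrm2 (29.4 and 25.6 CPM) in mid erythroid-like cells. Of the S genes, Rfc5 differed most between the 2 populations, with 83.7 and 110 CPM in mid erythroid-like cells.

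To count cells rather than sum transcripts, each cell was thinned at random to 2000 UMIs, and shallower cells were left out (529 of 4032 distraction and 1147 of 5182 sham cells). A cell with 3 or more UMIs over the 21 G2/M genes was counted as carrying G2/M transcripts, and one with 3 or more S UMIs and under 3 G2/M UMIs as carrying S transcripts alone. Mature neutrophil-like cells, which no longer divide, gave the background. The G2/M share there was 0.728% (3 of 412 cells, interval 0.15% to 2.11%) in distraction and 2.19% (5 of 228, 0.716% to 5.04%) in sham. The S share there was far from low, at 33.7% and 37.7%, and rested on Pcna. With Pcna left out, a change made after this was seen, it was 0 of 412 cells and 2 of 228 cells (0.877%), and the exact interval of 0 of 412 reaches 0.891%. The S shares that follow are therefore without Pcna.

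Nearly all mid erythroid-like cells carried G2/M transcripts: 98.3% of 181 distraction cells (95.2% to 99.7%) and 97.7% of 129 sham cells (93.4% to 99.5%). Early erythroid-like cells followed with 83.6% of 61 and 78.7% of 47. B-like cells stood at 37.1% of 1290 (34.5% to 39.8%) and 33.0% of 2524 (31.2% to 34.9%). Late erythroid-like cells (26.9% and 26.8%), granulocyte progenitor-like cells (25.3% and 23.4%), immature neutrophil-like cells (21.02% and 19.4%) and monocyte-like cells (20.3% and 22.03%) had overlapping intervals. Stromal cells, at 1 of 100 and 2 of 70 cells, did not stand above the mature neutrophil-like background. These shares depend on the depth to which cells are thinned. Without thinning they were 76.1% and 56.5% in granulocyte progenitor-like, 30.96% and 28.8% in immature neutrophil-like, 38.8% and 40.8% in monocyte-like and 14.4% and 15.8% in stromal cells, so the granulocyte progenitor-like cells then stood above the other 3.

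At 2000 UMIs, S transcripts without G2/M transcripts were most frequent in granulocyte progenitor-like cells, at 32.3% of 99 distraction cells (23.3% to 42.5%) and 23.4% of 47 sham cells (12.3% to 38.0%), and next in early erythroid-like cells, at 16.4% and 17.02%. Without thinning that share was 12.8% and 15.9% in granulocyte progenitor-like cells and highest in stromal cells, at 31.5% and 25%. They were nearly absent from mid erythroid-like cells (0 of 181 and 1 of 129), whose S transcripts lay in cells that also carried G2/M transcripts. Of the G2/M cells, 72.5% and 72.2% in the mid erythroid-like class also had 3 or more S UMIs, against 100% and 97.3% in the early class. In late erythroid-like cells that share was 5.13% and 3.33%. In B-like cells it was 87.7% and 84.9%. In granulocyte progenitor-like cells it was 60% and 54.5%, in immature neutrophil-like cells 39.6% and 60.7%, and in monocyte-like cells 47.3% and 48.1%. A G2/M count therefore does not place a cell after replication. In the 2 younger erythroid classes and in B-like cells it mostly marked cells with both groups of transcripts.

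**Figure D2:**
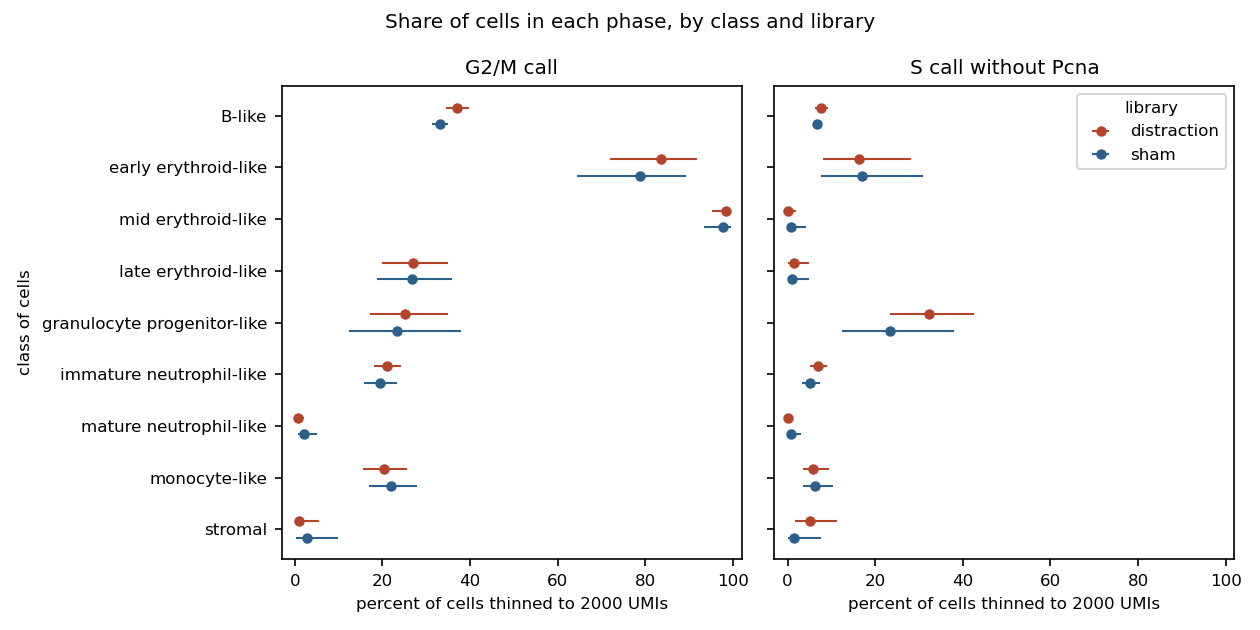
Percent of cells thinned to 2000 UMIs that carried G2/M transcripts (left) or S transcripts without Pcna and without G2/M transcripts (right), by class (vertical axis) and library (colour). Points are shares and bars exact 95% intervals for counting error. Mid erythroid-like cells sit near 98% on the left and near 0% on the right, and the intervals of the libraries overlap in each class on the left, B-like cells at 37.1% and 33.0% included.

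The B-like cells fell into 6 clusters whose cycle genes ran from nearly absent to nearly universal. The B precursors led by Dntt and Igll1 (the enzyme that adds bases at immunoglobulin joints, and the surrogate light chain) had G2/M transcripts in 38.9% of 113 distraction and 29.6% of 196 sham cells. In the Ezh2 and Cd24 precursors the shares were 92.8% of 346 and 91.5% of 662. Cells led by Rag2 and Stambpl1 had 26.6% and 20.8%, and cells led by Rag1, a subunit of the recombinase of immunoglobulin genes, 0.515% and 1.20%. Cells with class II genes and Ms4a1, markers of immature and mature B cells, had 3.95% and 6.03%. A cluster called stress-gene B cells here had 21.8% and 13.8%. That name is only a label: the cluster was led by AY172581.3, AY172581.1, Nfkbid and Irf4, with the heat shock gene Hsph1 further down. Rag1 B cells were thus at the level of mature neutrophil-like cells, and the Ezh2 and Cd24 precursors, clustered without the cycle genes, were almost wholly marked.

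Summed over the 21 G2/M genes, levels in the distraction and sham libraries were 6970 and 7367 CPM in the Ezh2 and Cd24 precursors, 2648 and 2759 CPM in the Rag2 and Stambpl1 cells and 144 and 195 CPM in the Rag1 cells. The 18 S genes without Pcna gave 5804 and 5636 CPM, 1052 and 901 CPM, and 377 and 419.5 CPM. From the first to the second of these clusters the S genes dropped further than the G2/M genes. Over both libraries the median G2/M gene kept 38.1% of its level in the Ezh2 and Cd24 precursors, and the median S gene 15.5%. Troap kept 85.3%, Aurka 84.2%, Ccnb1 73.7% and Cdc20 71.9%, while Ccne1 kept 2.87%, Ccne2 4.42% and, among G2/M genes, Top2a 23.04%. Other spindle and mitotic kinase genes were kept less well, with Nusap1 at 23.4%, Aurkb at 25.6%, Kif11 at 35.6% and Plk1 at 46.3%. Rrm2 kept 2.65%, but its level of 0.282 CPM against 10.6 CPM is too low to rank it against the cyclins E. The count ratio of Cdc20 to Top2a was 0.214 and 0.229 in the Rag2 and Stambpl1 cells against 0.0687 and 0.0729 in the Ezh2 and Cd24 precursors.

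Rag1 B cells kept a median of 2.31% of the G2/M level and 3.74% of the S level of the Ezh2 and Cd24 precursors. A few members were kept better: Aurka 23.5%, Rfc5 26.4%, Mcm3 19.2%, Mcm7 18.9% and Cdk2 15.6%. Rfc5 was at 124 and 107 CPM in Rag1 B cells and at 166 and 122 CPM in class II B cells. Class II B cells had few G2/M transcripts but carried S genes, with Mcm3 at 131 and 110 CPM and 16.2% and 7.33% of cells carrying S transcripts alone. In the Dntt and Igll1 precursors all 40 G2/M and S genes were below the Ezh2 and Cd24 level, from 35.7% for Nusap1 to 94.6% for Tyms.

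**Figure D3:**
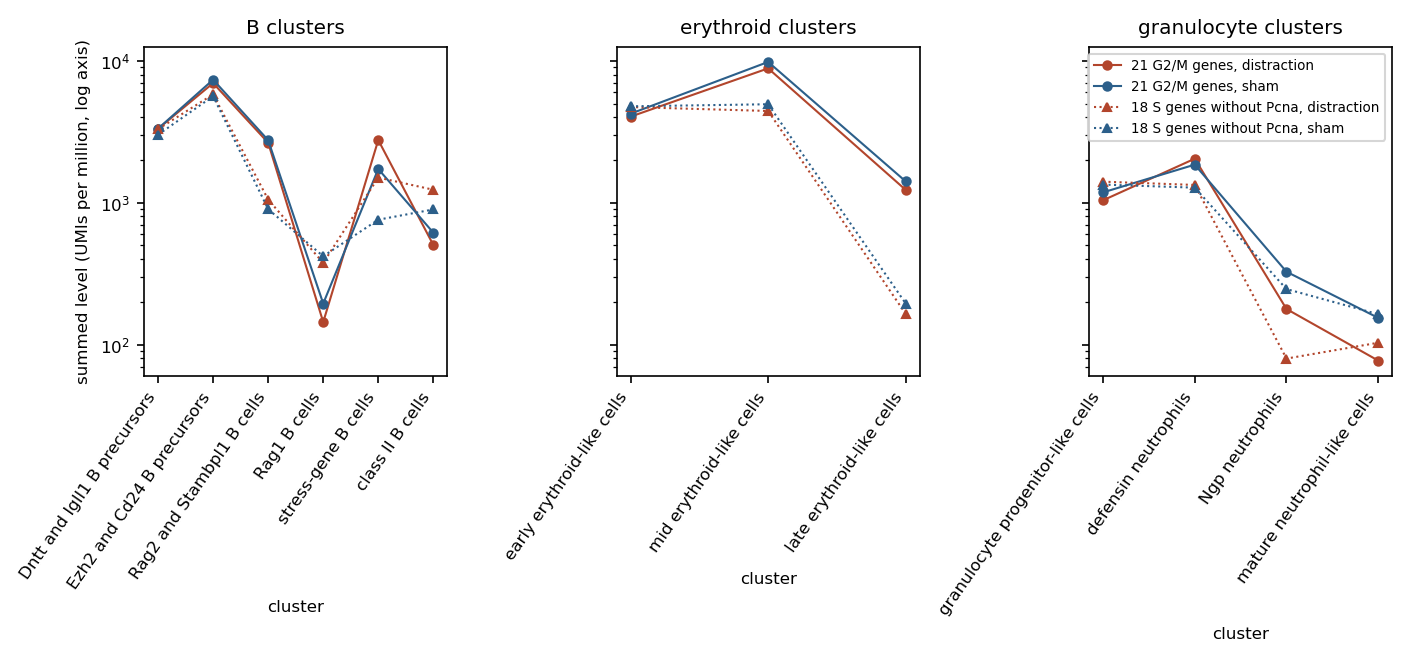
Summed level in CPM (log axis) of the 21 G2/M genes (circles, solid lines) and the 18 S genes without Pcna (triangles, dotted lines) along B, erythroid and granulocyte clusters, by library (colour). Lines only join clusters in an order set from markers. Among the B clusters both groups of genes peak in the Ezh2 and Cd24 precursors (6970 and 7367 CPM for G2/M genes), and in late erythroid-like cells the S genes lie far below the G2/M genes.

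Along the erythroid classes the S genes were about equally high in early and mid cells, and the G2/M genes were highest in mid cells. The 18 S genes summed to 4726 and 4782 CPM in early, 4434 and 4945 CPM in mid and 164 and 195 CPM in late erythroid-like cells. The 21 G2/M genes summed to 4043 and 4241 CPM, 8853 and 9828 CPM, and 1230 and 1413 CPM. Early cells were deeper, with medians of 26521 and 13398.5 UMIs against 3874 and 4151 UMIs in mid cells. CPM are shares of UMIs and not molecules per cell. On that scale the mid class had about the S level of the early class and more than 1.5-fold its G2/M level in both libraries. That rise was uneven: relative to the mid class, early cells had 17.3% of its Mki67, 18.3% of its Cenpf and 20.4% of its Nusap1, but 131% of its Plk1, 122% of its Ccnb1 and 116% of its Aurka.

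Late erythroid-like cells kept a few mitotic transcripts and almost no S transcripts. The median G2/M gene stood at 10.1% of its mid erythroid level and the median S gene at 2.75%. Ube2c was best kept, at 305 and 332 CPM, which is 51.6% of the mid level. Mki67 remained at 436 and 429 CPM and Cenpf at 118 and 164 CPM. By contrast Top2a was at 13.7 and 26.2 CPM, Cdk1 at 3.42 and 17.5 CPM, Pcna at 58.2 and 48.1 CPM, and Bub1b and Rrm2 had no count. Haemoglobin genes took 1.15% and 0.873% of UMIs in early, 28.8% and 24.95% in mid and 54.6% and 52.6% in late erythroid-like cells, which lowers the CPM of all other genes alike. It leaves the ratio between 2 genes as it is, and the ratio of Mki67 to Top2a was 31.9 and 16.3 in late cells. Top2a had under 100 counts over both libraries there, so these ratios and their difference between libraries are imprecise.

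In the granulocyte line the G2/M genes were, in CPM, highest in the defensin neutrophils and low in the later neutrophils. G2/M genes summed to 1040 and 1183 CPM in granulocyte progenitor-like cells and to 2043 and 1856 CPM in neutrophils led by defensins. They then summed to 178 and 326 CPM in neutrophils led by Ngp, a granule protein gene, and to 77.2 and 154 CPM in mature neutrophil-like cells. Of the 21 G2/M genes, 20 were higher in the defensin neutrophils than in the progenitors, with Plk1 at 310% and Birc5, the exception, at 95.5%. S genes went both ways, with 10 of 19 higher: Fbxo5 at 314% and Ccne1 at 244%, but Mcm3 at 44.4%, Rfc5 at 48.1% and Mcm7 at 50.2%. Helicase genes were thus higher in the progenitors, and cyclin E and Emi1 in the defensin neutrophils.

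By cells, 42.9% of 340 distraction and 39.1% of 207 sham defensin neutrophils carried G2/M transcripts, against 0.813% of 369 and 3.19% of 251 Ngp neutrophils. Without thinning the share was 62.0% and 54.0% in defensin neutrophils, below the 76.1% and 56.5% of granulocyte progenitor-like cells. The progenitor-like cells were deeper, with medians of 33168 and 22713 UMIs against 12134 and 8441 UMIs, so the order of these 2 clusters depended on depth. The Ngp share was at the mature neutrophil background in each library. In the sham library the members' levels in Ngp and mature neutrophils were higher than in the distraction library, and so were B cell markers there: they summed to 239 CPM in sham and 49.3 CPM in distraction Ngp neutrophils, and to 183 and 53.4 CPM in mature neutrophil-like cells. The part of RNA from other cells in these low levels was not tested.

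Pcna left the other S genes in mature neutrophil-like cells. Its level was 1113 CPM (1057 to 1171) in the distraction and 1220 CPM (1142 to 1303) in the sham library, close to its 1114 and 1100 CPM in defensin neutrophils, while Ngp neutrophils between them had 293 and 380 CPM. The other 18 S genes together reached 103 and 164 CPM in mature neutrophil-like cells, and the highest single one over both libraries, Rfc5, 20.6 CPM. The count ratio of Pcna to those 18 genes was 10.8 and 7.45 there. It was 0.312 and 0.317 in the Ezh2 and Cd24 precursors, 0.835 and 0.861 in defensin neutrophils and 0.490 and 0.409 over all cells. In these cells Pcna alone did not mark the S group, in either library. It also had the lowest correlation of the 19 S genes with the other S genes over 24 clusters in both libraries, with a Pearson r of 0.53 on log2(CPM + 1) over 48 points that share libraries and depth, where Mcm4 and Mcm6 had 0.96.

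**Figure D4:**
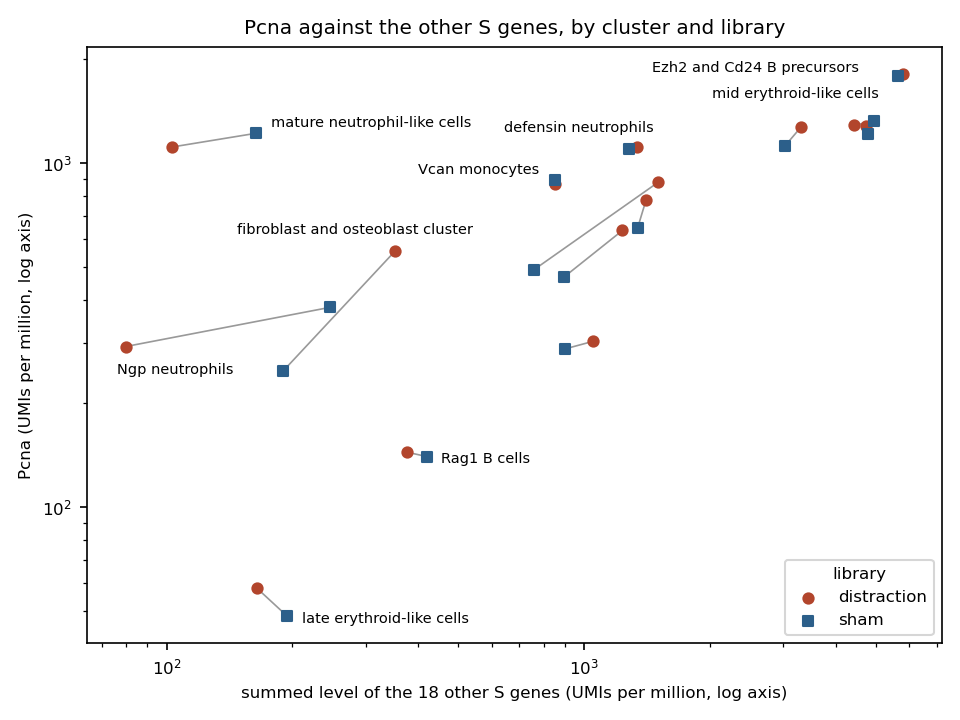
Pcna (vertical, CPM) against the sum of the 18 other S genes (horizontal, CPM), both on log axes, for 15 clusters in each library (colour and marker), with a grey line joining the libraries of a cluster. Mature neutrophil-like cells lie far above the other clusters of low S level, with Pcna at 1113 and 1220 CPM.

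Monocyte-like cells had moderate levels of both groups. G2/M genes summed to 1087 and 1185 CPM and S genes without Pcna to 838 and 853 CPM, and about equal shares of cells in the libraries carried G2/M transcripts. Pcna equalled the other S genes together, with a count ratio of 1.04 in both libraries. Stromal cells were low in G2/M genes (138 and 175 CPM) and had somewhat more of S genes without Pcna (340 and 274 CPM). Pcna was at 633 CPM in distraction and 340 CPM in sham stromal cells. B cell markers summed to 86.1 and 207 CPM in stromal cells, and mature neutrophil markers to 775 and 38.4 CPM. The latter stood at 895 and 33.3 CPM in the fibroblast and osteoblast cluster and at 91.3 and 65.3 CPM in endothelial-like cells. Whether these transcripts came from other cells, and their part in the stromal values, was not tested.

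Between the libraries, a gene was compared within a class when it had 100 or more counts over both, and was called past a 1.5-fold ratio. In B-like cells 0 of 41 members passed, against a background of 2.83% of 8624 genes. The members' log2 ratios of distraction over sham ran from -0.26 to 0.55 with a median of 0.08, and the median of all genes was -0.03. The S genes had a median of 0.16 and the G2/M genes of 0.04. In the other classes few members passed, with all genes past the fold in 4.14% of early erythroid-like, 8.4% of mid erythroid-like, 9.12% of late erythroid-like, 7.49% of immature neutrophil-like and 4.38% of monocyte-like genes. Early erythroid-like cells had 2 of 39 (Kif20a higher at a log2 ratio of 0.72, Troap lower at -0.63), mid erythroid-like cells 1 of 39 (Stmn1 lower, -0.64) and late erythroid-like cells 1 of 4 (Tpx2 lower, -0.84). Immature neutrophil-like cells had 2 of 40 (Rrm1 higher, 0.62, Tyms lower, -0.60) and monocyte-like cells 1 of 36 (Troap lower, -0.62). Sham mid erythroid-like cells, where Stmn1 stood at 733 CPM against 471 CPM in distraction, held B cell markers at 277 CPM against 22.8 CPM, and their part in this difference was not tested. Without the cell of each library with the most counts of a gene, 0 members were lower in mid erythroid-like, late erythroid-like and immature neutrophil-like cells. With libraries scaled by the median ratio, mid erythroid-like cells had 1 higher and 0 lower, and immature neutrophil-like cells 3 higher and 0 lower. Apart from late erythroid-like cells, with 4 members tested, these counts lie near or below the background of their class.

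In granulocyte progenitor-like cells 4 of 33 members were past the fold, all lower in distraction and all G2/M genes, where 9.55% of all genes were past it (7.19% lower) and the median of all genes was -0.14. Nusap1 was at 22.9 and 40.4 CPM (ratio 0.567, 0.396 to 0.815), Ube2c at 68.3 and 115 CPM (ratio 0.592), Ccnb1 at 18.5 and 31.1 CPM (ratio 0.595) and Plk1 at 19.8 and 31.1 CPM (ratio 0.635). A single sham cell held 26.3% to 34.1% of the sham counts of each of these genes. Without the top cell of each library, 0 members were past the fold and the summed G2/M log2 ratio moved from -0.19 to 0.01. In mature neutrophil-like cells 39 of the 41 members had under 100 counts, and 1 of the other 2, Stmn1, was lower (49.7 and 82.6 CPM, 10.6% of all genes past the fold). Without its top cell it was not past the fold. In stromal cells only Pcna and Stmn1 had 100 counts. Pcna was past the fold (log2 ratio 0.90), as were 26% of all genes in that class.

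**Figure D5:**
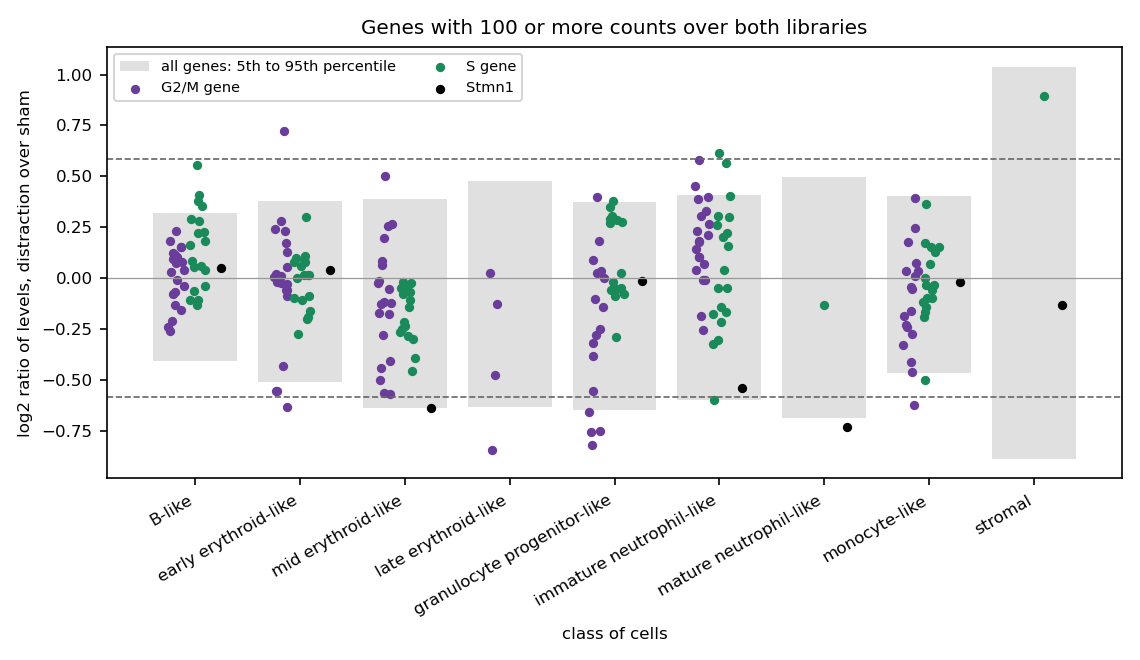
Log2 ratio of levels, distraction over sham (vertical), for each member with 100 or more counts in a class (horizontal), with G2/M genes, S genes and Stmn1 in colours. Grey boxes span the 5th to 95th percentile of all genes tested in that class and dashed lines mark a 1.5-fold ratio. In B-like cells the 41 members lie between -0.26 and 0.55, inside the dashed lines.

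The share of B-like cells with G2/M transcripts was 4.09 percentage points higher in distraction (0.897 to 7.31). It was 1.57 points lower (-5.67 to 2.36) when cells were thinned to 4000 UMIs instead, which counts only cells of at least that depth. The median B-like depth was 2922 UMIs in distraction and 2636 UMIs in sham, so that setting leaves out most B-like cells. In the remaining classes the interval of the difference held 0, for example -3.22 to 6.19 points in immature neutrophil-like and -9.68 to 20.3 points in early erythroid-like cells. Within B clusters no interval of the G2/M difference excluded 0. The mix of clusters inside the B-like class differed: Rag1 cells made up 346 of 1589 distraction and 998 of 3404 sham B-like cells.

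In 2 of the B clusters several members were higher in distraction. In class II B cells 4 of 17 members passed the fold, all MCM genes and higher, against 6.26% of all genes (2.51% higher). Mcm2 was at 104 and 54.5 CPM (ratio 1.91, 1.41 to 2.59), Mcm6 at 123 and 66.3 CPM (ratio 1.85), Mcm7 at 110 and 65.1 CPM (ratio 1.69) and Mcm4 at 115 and 70.5 CPM (ratio 1.63). The share of these cells carrying S transcripts alone, counted in thinned cells, was 8.90 points higher in distraction (3.87 to 14.6). Shares without thinning lay closer together, at 17.3% in distraction and 15.6% in sham class II B cells. The size of this difference thus depended on the thinning. In the stress-gene cluster, with 134 and 223 cells, 6 of 10 members passed, all higher, against 11.3% of all genes (4.42% higher): Mki67 at 404 and 189 CPM (ratio 2.14), Cenpe (2.13), Mcm4 (2.02), Pcna (1.79), Stmn1 (1.65) and Bub1 (1.63). A single distraction cell held 31.8% of the Mcm4 and 13.95% of the Mki67 counts of that library in the stress-gene cluster, and without the top cells 4 members passed. In the Ezh2 and Cd24 precursors 1 of 41 passed (Rrm2, log2 ratio 0.61), in the Rag2 and Stambpl1 cells 3 of 36, and in the Dntt and Igll1 precursors 0 of 39, where 2.62%, 4.37% and 4.61% of all genes did.

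A cluster led by Mcpt1l1 and Icos, with 96 distraction and 73 sham cells, lay outside the classes above. Its best marker list was that of T and NK cells, with 5 markers detected and a mean relative level of 0.551. G2/M transcripts were found in 21.1% of its 90 thinned distraction cells and 38.3% of its 60 sham cells, a difference of -17.2 points (-31.8 to -2.49) that was not present with cells thinned to 1000 UMIs. Of 24 members 7 were past the fold, all lower in distraction, where 8.3% of all genes were past it (4.87% lower). Top2a was at 214 and 374 CPM, Mki67 at 122 and 210 CPM, Cdk1 at 66.7 and 117 CPM, Uhrf1 at 54.4 and 99.7 CPM and Pcna at 536 and 826 CPM in this cluster. Birc5 and Lig1 were the other two.

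Over all cells, G2/M genes summed to 2301 CPM in distraction and 3010 CPM in sham (ratio 0.765), and 4 of 41 members passed the fold, all lower (Troap, Bub1, Bub1b and Tpx2), as did 19.4% of all genes in either direction (12.9% lower). The libraries differed in their cells. B clusters held 26.1% of distraction and 50.5% of sham UMIs, and granulocyte clusters 35.6% and 19.3%. With each cluster of the distraction library weighted as in the sham library, the ratio was 0.948 for G2/M genes and 1.03 for S genes without Pcna (0.833 unweighted). Of the cells carrying G2/M transcripts, 46.5% in distraction and 67.7% in sham were B clusters, 26.0% and 15.7% erythroid, 17.2% and 8.52% granulocyte, and 0.0971% and 0.162% stromal.

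Other genes of the cycle gave the same picture in B-like cells. Of 32 further S genes, 41 further G2/M genes and 21 genes of cycle entry and exit with 100 counts, 0, 0 and 0 were past the fold. In granulocyte progenitor-like cells 0 of 17, 1 of 20 (Ndc80, a kinetochore gene, higher, 0.65) and 1 of 12 (Ccng2, lower, -0.88) were. Immature neutrophil-like cells had 1 of 20 (Pola1, a DNA polymerase subunit, higher, 0.71), 1 of 36 (Cks1b, a Cdk subunit, lower, -0.99) and 0 of 12. In early erythroid-like cells the counts were 0 of 25, 1 of 31 (Ndc80, lower, -0.70) and 0 of 13, and in monocyte-like cells 0 of 16, 2 of 28 (Kif20b lower, -0.68, Pttg1, securin, higher, 0.63) and 0 of 13. In class II B cells the cyclin D genes went opposite ways, with Ccnd2 at 128 and 69.3 CPM (ratio 1.84) and Ccnd3 at 44.2 and 73.4 CPM (ratio 0.602). In stromal cells, where 26% of all genes were past the fold, 0 of 2 further S genes, 1 of 2 further G2/M genes and 1 of 9 entry and exit genes were. These were Cks2, a Cdk subunit, at 164 and 54.7 CPM (ratio 2.999), and Cdkn1c, a Cdk inhibitor, at 217 and 141 CPM (ratio 1.54).

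Outside all lists, the genes whose level followed the summed G2/M genes most closely over 24 clusters in both libraries were Depdc1 (Pearson r 0.93, Spearman rho 0.90), Kifc1 (0.93 and 0.91), Cenpt (0.92 and 0.91), Cdkn3 (0.91 and 0.83) and Kif18b (0.91 and 0.91). Hmgb2l1, Fam111a, Arhgap11a, Smc2 and Spag5 came next, with r from 0.90 to 0.88. For the summed S genes they were Tuba1b (0.91 and 0.88), Tubb5 (0.87 and 0.86), Pola2 (0.86 and 0.86), Nsd2 and Smc1a (both 0.84), and then H2afx, Pask, Ska2, Baz1b and Anp32b, with r from 0.83 to 0.82. These are descriptions over 48 points among 7287 genes, and the points share libraries, depth and the clustering.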

How the data were processed

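Both files are BD Rhapsody molecule tables. The authors deposited whole-number UMI counts per cell and gene after the pipeline's correction of recursive substitution errors (BD WTA Rhapsody Analysis Pipeline 1.5.1, per the file headers). Seurat 3.6 is named in the submitters' processing notes without a role. The aligner and annotation: not given in the sources used here. Cells with at least 500 UMIs, 200 genes and under 25% mitochondrial UMIs were kept. A doublet caller marked 6 of 9220 cells (0.0651%), which were removed; at that rate it is taken not to have worked, so doublets remain. Counts were scaled to 10000 per cell, logged, and the 2000 most variable genes other than the cell cycle genes gave 30 principal components, 15 neighbours and Leiden clusters at resolution 1 (scanpy 1.11.5, leidenalg 0.10.2). A cluster took the name of its best marker list among those with 3 markers in at least 10% of its cells, if their mean level relative to the highest cluster was at least 0.3 and a marker of that lineage was among its 50 leading genes. Clusters are otherwise called by leading genes. So are the B clusters, the fibroblast and osteoblast cluster (best list: mural cells) and the Mcpt1l1 and Icos cluster (best list: T and NK cells). CPM are sums over cells. Shares have Clopper-Pearson, ratios conditional binomial and differences Newcombe intervals (scipy 1.17.1, statsmodels 0.14.6), all for counting error only, and no p was computed. The ratio step was tested on simulated data. Named genes were all members, up to 4 a role or list with the largest ratio past the fold, and the 10 genes most like each summed group. Further genes in the text were picked with their values in view. The members and lists were chosen with earlier results of these data known. The minimum of 100 cells for peak clusters, and the S call without Pcna, were chosen after seeing the data. Alternatives are given in the closing section.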

Additional observations from a re-analysis of the deposited data

How the results depend on the processing

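No paired analysis was possible because each group had 1 library. Mid erythroid-like cells had the highest share of cells with G2/M transcripts in both libraries under all 11 settings, and the lowest was in mature neutrophil-like or stromal cells. Over these settings the distraction share ran from 25.4% to 79.7% in B-like and from 9.26% to 76.1% in granulocyte progenitor-like cells, and the sham share from 21.6% to 81.2% and from 6.38% to 56.5%. Thinning to another depth also changes which cells are counted, since shallower cells are left out. The difference in B-like G2/M share was -1.57 points at 4000 UMIs, in the Mcpt1l1 and Icos cluster 0.132 points at 1000 UMIs, and in granulocyte progenitor-like cells 19.6 points with no thinning. With Pcna counted, the S share difference was -6.11 points (immature neutrophil-like) and 6.30 points (monocyte-like) with no thinning. It was 1.43 points in mid erythroid-like cells with 5 UMIs required, Pcna again counted. Without Pcna the unthinned S shares in distraction and sham were 7.39% and 8.67% (immature neutrophil-like) and 7.27% and 10.1% (monocyte-like). With only 150 promoter bases, 6.25% of S promoters held a cell cycle homology region and 0% both motifs. With a fold of 2, 0 members were higher in early erythroid-like, immature neutrophil-like and stromal cells, and 0 lower in early, mid and late erythroid-like, granulocyte progenitor-like, immature and mature neutrophil-like and monocyte-like cells. With a minimum of 30 counts, 1 was higher in granulocyte progenitor-like and monocyte-like cells and 5 in stromal cells, and 2 were lower in immature and mature neutrophil-like and 1 in stromal cells. With 1 count enough, 2 were higher in early and 3 in late erythroid-like cells, 1 in granulocyte progenitor-like and monocyte-like cells, 7 in mature neutrophil-like and 12 in stromal cells, and 2 were lower in immature neutrophil-like, 13 in late erythroid-like, 25 in mature neutrophil-like and 13 in stromal cells. Without the top cell, 2 were higher in immature neutrophil-like and stromal cells, and 0 lower in granulocyte progenitor-like, immature and mature neutrophil-like, mid and late erythroid-like cells. Scaled by the median ratio, 3 were higher and 0 lower in immature neutrophil-like cells, and 1 and 0 in mid erythroid-like cells. With every deposited cell kept, 0 were lower in early erythroid-like and immature neutrophil-like and 2 in late erythroid-like cells. With at least 1500 UMIs, 1 was higher in granulocyte progenitor-like cells, and 0 lower in late erythroid-like and 3 in monocyte-like cells. At resolution 2, 3 were lower in early erythroid-like and 5 in monocyte-like cells, and with cycle genes in the clustering 0 in late erythroid-like and monocyte-like cells. The summed G2/M log2 ratio, scaled by the median ratio, was 0.052 (B-like), -0.048 (granulocyte progenitor-like), 0.26 (immature neutrophil-like) and -0.046 (mid erythroid-like). It was -0.15 (early erythroid-like) and -0.31 (monocyte-like) at resolution 2, -0.32 (granulocyte progenitor-like) and -0.24 (monocyte-like) with 1500 UMIs, and 0.011 (granulocyte progenitor-like) and 0.15 (stromal) without the top cell. The summed S log2 ratio, with Pcna included and scaled likewise, was 0.19 (B-like), 0.28 (granulocyte progenitor-like), 0.13 (immature neutrophil-like), -0.029 (mid erythroid-like) and 0.50 (stromal). It was -0.058 (early erythroid-like) and -0.12 (monocyte-like) at resolution 2, and in granulocyte progenitor-like cells -0.077 with 1500 UMIs and 0.21 without the top cell. The cause was not tested. Clusters inside a class were followed only in the clustering reported.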
